A study of Mus musculus with 12 samples.

Results

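The subject is the baseline of RAW264.7 macrophages: the 3 arrays, of 12 in the series, whose labels give neither palmitic acid nor FABP4. RAW264.7 is an established mouse macrophage-like line, derived from a tumour that Abelson murine leukaemia virus induced in male BALB/c mice. Per the labels, the cells grew in DMEM with 10% serum and antibiotics, and the incubation lasted 24 h in medium with 0.5% fatty acid-free BSA, which these controls shared with the other 3 groups (200 nM recombinant FABP4, 0.2 mM palmitic acid, or both). Each sample was total RNA, labelled with Cy3 and hybridised to 1 array. All 3 arrays came from the same line and lay on the same slide, and nothing in the labels says that they were separate cultures, so the spread given here may be technical. No other group enters any value below.

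Macrophages are phagocytes that take up particles and lipoproteins, sense microbes through Toll-like and cytosolic receptors, and secrete cytokines and chemokines. Their identity depends on the transcription factor PU.1 (Sfpi1) and on signalling by colony-stimulating factor 1 through its receptor Csf1r. In macrophages, fatty acid binding proteins carry fatty acids inside the cell, and Fabp4 and Fabp5 are the forms best known there. RAW264.7 cells are also widely used as precursors of osteoclasts, the bone-resorbing cells of the same lineage.

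A gene name was called detected when at least 1 of its probes was well above background, by the scanner software's flag, on all 3 arrays. By that rule 16646 of 34797 gene names (47.8%) were detected. A further 773 names reached the flag on 2 arrays and 1786 on 1 array, and 15592 names on none. Among the 20662 names whose accessions matched RefSeq, 11331 (54.8%) were detected, and the list counts below are read against that share. List members were chosen with earlier results of these data known. Signal is the log2 of the processed intensity of a gene's brightest probe, and its rank runs from 1 (brightest) over all names. Detected names ranged from 4.59 to 18.40, with quartiles at 7.15, 9.27 and 11.60, and the median over all RefSeq-matched names was 6.07. The brightest 10% of names (3479, a signal of at least 12.09) held 11% of the RefSeq-matched names, and members inside it are called bright here. A rank orders the signals of probes that differ in sequence, so it is no measure of the amount of RNA of 1 gene against another. Undetected names at the floor have no order among themselves: 36.4% to 39.6% of the spots of an array held a floor value.

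**Figure D1:**
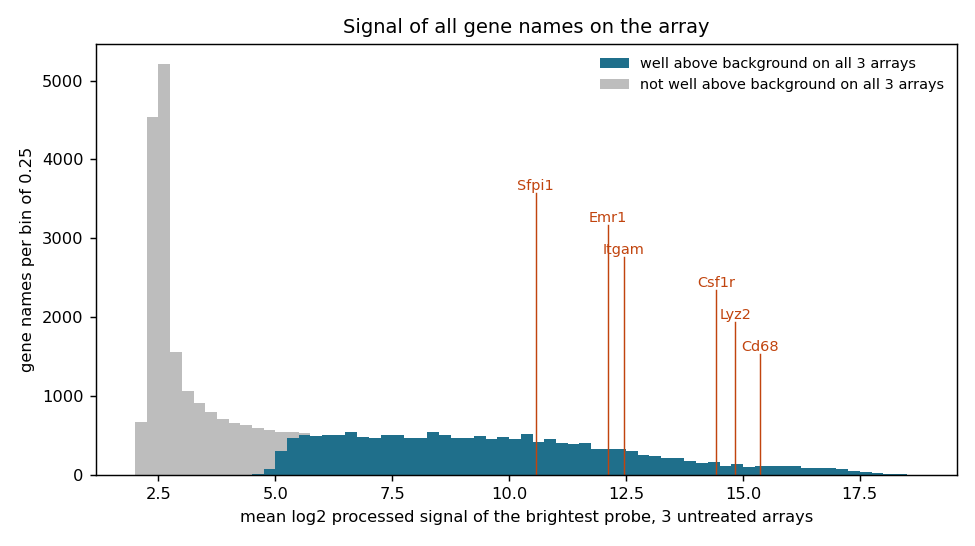
Number of gene names (vertical axis) by mean log2 processed signal over the 3 untreated arrays (horizontal axis, brightest probe of a name), with detected names in blue and the others in grey. The names not detected pile up at the floor below a signal of about 3 while detected names spread from 4.59 to 18.40, and the red lines place the 6 macrophage markers between 10.56 and 15.36, all above the median of the detected names, 9.27.

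The 6 macrophage markers were detected on every probe they had. Cd68, a lysosomal membrane glycoprotein of phagocytes, read 15.35, 15.41 and 15.33 on arrays 1, 2 and 3, a mean of 15.36 ± 0.04 (mean ± SD, n = 3, as for every value given with ± here) and rank 830. Its probe maps to chr11:69477775-69477834 in mm9. Its other probe, also detected, averaged 11.45. Lyz2, the lysozyme of myeloid cells, read 14.75, 14.90 and 14.86, rank 1074, with its probe at chr10:116719175-116719234. Csf1r, the receptor that macrophages need for survival, read 14.42, 14.38 and 14.49, rank 1279, and the dimmest of its 3 probes averaged 9.25. Array order differed from marker to marker: array 2 was highest for Cd68 and Lyz2 and lowest for Csf1r. Itgam, the alpha chain of the complement receptor CR3, read 12.50, 12.36 and 12.51, rank 2982. That value is of a probe with a CA repeat that many other probes share, and the dimmest of the 3 Itgam probes, also detected, averaged 8.38. Emr1, which encodes the F4/80 antigen, read 12.16, 12.06 and 12.11, rank 3440, with its probe at chr17:57622868-57622927. Sfpi1, which encodes PU.1, read 10.52, 10.61 and 10.57, rank 5875, the last of the 6 in rank. Ranked on each array alone, Sfpi1 lay between 5728 and 5950 and Cd68 between 805 and 862. With the mean of a gene's probes in place of the brightest, Cd68 ranked 1609 and Csf1r 3972. Every marker of the label was thus present, with an SD between arrays of 0.04 to 0.09.

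**Figure D2:**
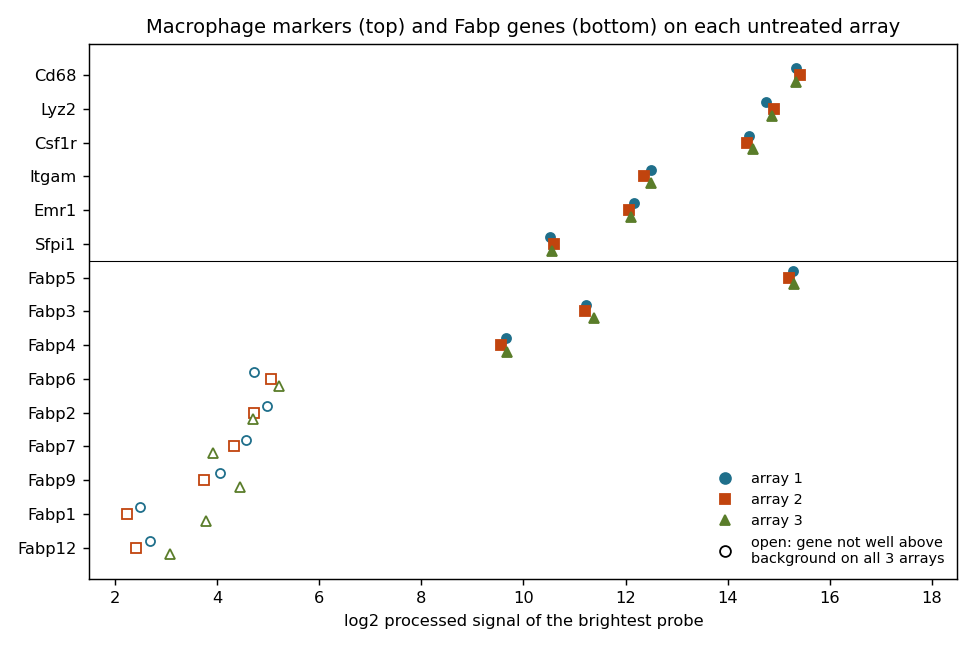
Log2 processed signal (horizontal axis) of the 6 macrophage markers and the 9 Fabp genes (vertical axis) on untreated arrays 1 (circles), 2 (squares) and 3 (triangles), with open symbols for genes not detected on all 3 arrays. The 3 symbols of a detected gene nearly coincide, from 9.63 for Fabp4 to 15.36 for Cd68, while the open symbols of the other Fabp genes scatter below 5.21.

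Of 20 genes of macrophage identity, 19 were detected and 15 were bright, and the median of the list was 12.71. The brightest were Lgals3 (galectin-3, 16.92 ± 0.05, rank 217), the endotoxin co-receptor Cd14 (16.89 ± 0.02, rank 234), the signalling adaptor Fcer1g (16.84 ± 0.03, rank 245) and the pore-forming perforin-2 gene Mpeg1 (16.45 ± 0.03, rank 383). Mertk, a receptor for the engulfment of dead cells, lacked the flag on every array. Among 12 Fc receptors and adaptors 10 were detected, led by Fcer1g and Tyrobp, which carry the activation motifs for receptors without their own. Fcgr1, the high-affinity IgG receptor, averaged 13.55, the inhibitory Fcgr2b 12.84 and the activating Fcgr4 12.74. Pigr, the epithelial antibody transporter, averaged 12.37 on a probe with a stretch that many probes share, while its other probe was not detected at 2.21. Fcer1a and Fcamr were not detected.

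Of 29 myeloid transcription factors, 23 were detected and 4 were bright. Cebpd, of the C/EBP family, read 16.28, 16.24 and 16.33, and it ranked 438. Cebpb, its relative, averaged 14.62 ± 0.07. Mitf, a factor of lysosomal and osteoclast genes, averaged 12.75, and Irf8, a factor of monocyte development, averaged 12.61. Zeb2 averaged 11.84 and Runx1 11.74. Both erythroid and mast cell factors of the list, Gata1 and Gata2, were not detected, nor were Batf3, Spic, Gfi1 and Myb.

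Sensing receptors were mostly detected, with gaps at named members. Among 20 Toll-like receptors and adaptors 14 were detected. Tlr2, which senses bacterial lipopeptides, read 13.35, 13.40 and 13.54. Its adaptor Myd88 read 13.18, 13.24 and 13.34. The endosomal receptor of single-stranded RNA, Tlr7, read 12.34, 12.48 and 12.40 on its brightest probe, and 1 of its 3 probes was not detected. Unc93b1, the chaperone of endosomal receptors, averaged 13.35 and Tlr13 11.42. Tlr4, chosen after its values were seen because it binds endotoxin with Cd14, averaged 10.48 ± 0.08, rank 6022. Tlr5, the flagellin receptor, was not detected, nor were Tlr11, Tlr12, Lbp and Ticam2, and Tlr8 reached the flag on 2 arrays only.

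Cytosolic sensing was nearly complete, with 20 of 22 genes detected and 9 bright. Il1b, the cytokine that inflammasomes process, read 16.60, 16.63 and 16.70, rank 310. Casp4 and Casp1, the caspases of inflammasomes, averaged 14.96 and 14.39. Ddx58 and Ifih1, which encode the viral RNA sensors RIG-I and MDA5, averaged 14.86 and 13.95. Naip5, a sensor of flagellin, averaged 15.17, but its only probe holds a shared stretch. Nlrp3, named after its values were seen, averaged 8.07 ± 0.01. Nlrp6 was not detected and Naip1 reached the flag on 1 array.

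Of 27 lectins and scavenger receptors 13 were detected (48.1%). The mincle-family lectins Clec4d and Clec4e averaged 15.54 ± 0.07 and 14.06 ± 0.05. Msr1, the class A scavenger receptor, read 12.75, 12.75 and 12.76. Clec7a, the beta-glucan receptor dectin-1, averaged 10.97, Scarb1 10.69 and the fatty acid and lipoprotein receptor Cd36 10.23. Clec4a2, Cd209a, Cd209b, Mrc2 and Ly75 were not detected, and Clec5a reached the flag on 1 array. The complement list had 14 of 18 members detected. Properdin (Cfp) and factor B (Cfb), both of the alternative pathway, averaged 14.75 and 14.14, and C3 averaged 12.90. C1qa and C1qc, which with C1qb form the C1q molecule, were not detected, nor were Vsig4 and Cd55.

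Inflammatory mediators were detected without any added stimulus in the labels: 18 of 21 genes, of which 9 were bright. Ptgs2, the inducible cyclooxygenase, read 15.69, 15.60 and 15.70, rank 707. Nos2, the inducible nitric oxide synthase, read 15.35, 15.50 and 15.45, rank 806. Tnf averaged 14.93 ± 0.07, rank 1026. Csf3, the granulocyte growth factor, read 14.03, 14.06 and 14.15, and Il6 read 13.84, 13.81 and 13.96. For each of these genes the 3 arrays lay close together, and no array was the lowest throughout. Il12a, Il12b and Il23a, which encode the subunits of interleukins 12 and 23, were not detected. Ifnb1, named after its values were seen as the source of autocrine interferon signals in macrophages, read 8.45, 8.48 and 8.43, rank 9894.

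Some chemokines reached ranks near the top of the array. Of 34 on the array 19 were detected (55.9%), near the 54.8% of all RefSeq-matched names, and 9 were bright. Ccl4 read 17.87, 17.85 and 17.88, rank 22, and its neighbour in function Ccl3, which like it attracts monocytes, averaged 17.42. Ccl9 averaged 17.80, rank 30. Ccl2, the main monocyte attractant, read 17.78, 17.76 and 17.80, rank 31. Ccl5 read 17.65, 17.68 and 17.71, rank 45. Cxcl11, a ligand of Cxcr3, averaged 17.38 on a shared-stretch probe and 11.41 on its other probe. Ccl1, Ccl11, Ccl20, Ccl24 and Ccl28 were not detected, and Ccl8 reached the flag on 2 arrays. Their receptors showed no bright member at all: 13 of 27 chemoattractant receptors were detected (48.1%). Cx3cr1, the fractalkine receptor, averaged 11.02 ± 0.06, the formyl peptide receptor Fpr2 10.96 ± 0.06 and the platelet-activating factor receptor Ptafr 10.86 ± 0.08. Ccrl2 averaged 10.27, and the complement receptors C3ar1 and C5ar1 averaged 9.95 and 9.13. Ccr3, Ccr4, Ccr6 and Ccr7 were not detected, and Ccr10 reached the flag on 1 array.

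Of 37 cytokine receptors 28 were detected. Csf2ra and Csf1r, the receptors of the granulocyte-macrophage and macrophage growth factors, averaged 14.99 and 14.43. Tnfrsf1a, the main receptor of tumour necrosis factor, averaged 13.75 and Csf2rb 12.66. Csf3r averaged 15.10 and Il15ra 14.44, each on a shared-stretch probe. The interleukin 1 receptors Il1r1 and Il1r2 and the interleukin 2 receptor chains Il2ra and Il2rb were not detected. Il5ra was on 1 array and Il12rb2 on 2. Of the 11 JAK kinases and STAT factors 10 were detected, with Stat3 at 13.85 ± 0.04, Stat2 at 13.65 ± 0.07, Jak1 at 12.37 ± 0.06 and Jak2 at 12.08 ± 0.09. Stat4 reached the flag on 1 array.

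All 24 genes of the antiviral interferon response were detected and all 24 were bright, against 54.8% and 11% of the RefSeq-matched names. The median of the list was 14.29 against 6.07, and the ranks of its members ran from 64 to 3360. The members were chosen with earlier results of these data known, and how far that choice shaped these shares was not tested. Isg15, a ubiquitin-like protein, read 17.54, 17.52 and 17.59. Oasl1 read 17.15, 17.12 and 17.18 and Oas1a, an oligoadenylate synthetase that activates RNase L, read 16.97, 16.90 and 17.00. Rsad2, which encodes the antiviral enzyme viperin, read 16.78, 16.77 and 16.88. Ifitm3, which blocks viral entry, averaged 16.23 ± 0.05, and Usp18, which removes Isg15 from proteins and damps the interferon receptor, averaged 15.83 ± 0.06. The SD of these 6 genes over the arrays ran from 0.03 to 0.06. In those given by array, array 2 was the lowest and array 3 the highest each time. These values are unscaled, and the 75th percentile of the whole arrays had the same order (8.01, 7.97 and 8.04 on arrays 1, 2 and 3). Interferon-stimulated genes are commonly switched on through the interferon-stimulated response element. This element was searched here as a pair of GAAA with 2 bases of any kind between them, on both strands in the 250 bases before the transcription start. It occurred in 11 of the 19 members with a promoter in the table (57.9%), in 3.44% of detected names, in 3.43% of names not detected and in 5.22% of the brightest 10%. Counted by promoter, where a name can have several, it was in 2.98% of all 32851 in the table. A match is a description of the letters and no evidence of binding.

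The promoters of 4 members, chosen after their values were seen, show the element, each as the 150 bases before the start, 5′ to 3′ on the gene's strand, from RefSeq on GRCm38.p6, with the matches on either strand in capitals. They are Ifit1 at chr19:34640739-34640888 (+ strand), Isg15 at chr4:156200819-156200968 (- strand), Rsad2 at chr12:26456453-26456602 (- strand) and Gbp2 at chr3:142620513-142620662 (+ strand).
Ifit1: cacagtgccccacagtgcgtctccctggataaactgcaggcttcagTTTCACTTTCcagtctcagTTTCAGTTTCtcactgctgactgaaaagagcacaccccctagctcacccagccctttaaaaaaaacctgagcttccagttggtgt
Isg15: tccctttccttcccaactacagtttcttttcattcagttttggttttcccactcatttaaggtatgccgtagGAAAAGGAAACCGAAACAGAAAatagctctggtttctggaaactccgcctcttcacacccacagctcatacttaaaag
Rsad2: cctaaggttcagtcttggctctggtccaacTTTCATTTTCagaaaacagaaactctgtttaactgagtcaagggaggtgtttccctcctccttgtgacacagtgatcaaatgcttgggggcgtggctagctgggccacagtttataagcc
Gbp2: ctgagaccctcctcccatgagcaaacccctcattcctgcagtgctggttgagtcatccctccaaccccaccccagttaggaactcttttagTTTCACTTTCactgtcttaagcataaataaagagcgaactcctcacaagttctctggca
The element nearest the start lay 76 bases before it in Ifit1, 57 in Isg15, 111 in Rsad2 and 50 in Gbp2. In Isg15 3 overlapping matches formed 1 run. These 4 genes had signals of 14.61, 17.55, 16.81 and 13.73. Ifit2, Oasl1, Oasl2, Irf1, Irf7, Irf9, Ifitm3 and Ifi44, also bright and named after the search, held no match in the window.

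MHC class I genes were all detected (14 of 14), and 12 were bright. B2m, the shared light chain, read 16.69, 16.61 and 16.70, rank 301. The heavy chains H2-K1 and H2-D1 averaged 15.29 ± 0.05 and 15.18 ± 0.06. These are near copies of each other, and whether the probes tell them apart was not tested. The immunoproteasome subunits Psmb10 and Psmb8 averaged 15.89 and 13.97, and the loading factor Tapbp 14.28. Of MHC class II and its processing genes 5 of 13 were detected (38.5%). Cathepsin S (Ctss), which trims the invariant chain, averaged 16.21, the invariant chain itself (Cd74) 12.79 and the thiol reductase Ifi30 12.28. H2-DMa averaged 6.78 ± 0.12 and H2-Ab1 6.26 ± 0.32, the latter with array 3 higher at 6.63. H2-Aa, H2-Eb1, H2-Eb2, H2-DMb2 and H2-Oa were not detected, and H2-DMb1 was on 2 arrays. Costimulatory genes were detected in 10 of 13 cases. Cd47, the signal that restrains phagocytosis, averaged 14.96, Cd83 14.61, Cd40 13.43, Tnfsf9 13.17, Sirpa (the receptor of Cd47) 12.55 and Cd274, which encodes PD-L1, 11.80. Pdcd1lg2, Tnfsf4 and Cd70 were not detected.

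Lysosomal proteases and lysozymes were detected in 16 of 17 cases, 10 of them bright, with a list median of 14.84. Lyz1 read 17.32, 17.34 and 17.42, rank 92. Lyz1 and Lyz2 are close copies, and whether their probes tell them apart was not tested. The cathepsins Ctsb, Ctsa, Ctsl and Ctsz averaged 16.76, 16.24, 16.24 and 15.80. Ctsg, a protease of neutrophil granules, was not detected. Osteoclast genes were detected in 15 of 17 cases but only 1, the proton pump subunit Tcirg1 (13.71 ± 0.08), was bright. Car2, the carbonic anhydrase, averaged 10.99 ± 0.05, and Tm7sf4, which encodes the fusion protein DC-STAMP, 10.94 ± 0.03. Cathepsin K (Ctsk) averaged 10.83 ± 0.03 and the tartrate-resistant phosphatase Acp5 10.13 ± 0.09. Calcr, the calcitonin receptor, and Itgb3, of the osteoclast vitronectin receptor, were not detected.

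Genes of alternatively activated macrophages were detected in 10 of 19 cases (52.6%). Mgl2, a galactose-type lectin, was the only bright one and read 14.02, 14.11 and 14.01. Tgm2 averaged 11.11 ± 0.10, Socs1 9.16 ± 0.09, Ccl17 8.40 ± 0.12, Clec10a 8.22 ± 0.05 and the interleukin 4 receptor chain Il4ra 7.76 ± 0.05. Arg1, the arginase that competes with Nos2 for arginine, lacked the flag on all arrays. The chitinase-like Chi3l3 and Chi3l4, the resistin-like Retnla, the haemoglobin scavenger receptor Cd163 and Ccl24 were not detected either. Genes typical of macrophages resident in particular tissues were detected in 5 of 19 cases (26.3%). Among them Car4 averaged 12.28 ± 0.11, Icam2 8.90 ± 0.06, Pparg 6.10 ± 0.07 and the folate receptor Folr2 5.71 ± 0.37. Clec4f of liver macrophages, Timd4, Vsig4 and Tmem119 of microglia were not detected. Cd5l reached the flag on 1 array and the scavenger receptor Marco on 2.

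Of the 9 Fabp genes, 3 were detected. Fabp4, the adipocyte and macrophage form whose protein the study added to other cultures, read 9.66, 9.56 and 9.68, a mean of 9.63 ± 0.06 and rank 7628. Its probe maps to chr3:10204452-10204511 in mm9. Fabp5 read 15.28, 15.21 and 15.31, rank 882, and is the only bright member. Fabp3, the heart form, read 11.22, 11.21 and 11.38, rank 4665, and both of its probes were detected. For each of these 3 genes array 3 was the highest and array 2 the lowest, with an SD of at most 0.09. These values are unscaled, and the 75th percentile of the whole arrays had the same order (8.01, 7.97 and 8.04 on arrays 1, 2 and 3). Fabp6 reached the flag on 2 arrays. Fabp1, Fabp2, Fabp7, Fabp9 and Fabp12 were not detected.

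Other lipid genes surround them. In fatty acid uptake and sensing 12 of 21 were detected, led by Lpl, the lipoprotein lipase, at 15.31, 15.20 and 15.35. The lysosomal lipase Lipa averaged 13.29, the acyl-CoA synthetases Acsl4, Acsl5 and Acsl1 12.94, 11.65 and 10.83, and the transporter Slc27a1 10.96. Slc27a2, Slc27a5, Slc27a6, Acsl6 and Acsbg2 were not detected, and Acsbg1 was on 2 arrays. Of 20 genes of lipid droplets 12 were detected, with the coat protein Plin2 at 14.89, 14.91 and 15.07 and rank 1014. Hilpda, an inhibitor of triglyceride lipolysis, averaged 12.65, the coat protein Plin3 11.60, the lipase Pnpla2 10.96 and its activator Abhd5 11.10. The adipocyte coat proteins Plin1 and Plin4, with Plin5, Cidec and Mgll, were not detected, and Cidea was on 1 array. Fatty acid oxidation was detected in 13 of 16 genes, of which only Acadvl (12.46 ± 0.09) was bright. Acaa2 averaged 11.13, Hadhb 11.03 and Echs1 10.91. The rate-limiting Cpt1a, named after its values were seen, averaged 8.43 ± 0.11. Cpt1c, Ehhadh and Decr1 were not detected.

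Cholesterol handling had 23 of 28 genes detected. Npc2, which moves cholesterol out of lysosomes, averaged 14.66 ± 0.05. The synthesis enzymes Sqle and Hmgcs1 averaged 13.05 and 12.87. Nr1h2, which encodes the oxysterol receptor LXR-beta, averaged 12.64, and its targets Abca1 and Apoe, named after their values were seen, averaged 8.95 and 7.09. Apoc1, Vldlr, Cyp27a1 and Cyp7a1 were not detected. Nuclear receptors as a family were detected in 22 of 49 cases (44.9%). Besides Nr1h2 the brightest were the glucocorticoid receptor Nr3c1 (12.24 ± 0.02), Esrra (12.01 ± 0.05), Rxrb (11.96 ± 0.08) and Ppard (11.56 ± 0.07). Rxrg averaged 11.55 on 1 probe, and its other probe was not detected at 2.32. Thrb, Rarb, Rora, Rorb and Nr1h4 were not detected. Eicosanoid genes were detected in 19 of 28 cases, with the prostaglandin E synthases Ptges3 and Ptges at 14.27 and 13.17, the phospholipase Pla2g4a at 13.37 and the leukotriene cofactor Alox5ap at 12.13. Ptgs1, the constitutive cyclooxygenase, was not detected, while Ptgs2 ranked 707. Pla2g7, Ptgds, Alox12, Alox15 and Ptger1 were not detected.

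Several families have both widely used and tissue-specific forms. Glycolytic enzymes and glucose transporters were detected in 22 of 32 cases, 14 of them bright. Aldoa read 17.19, 17.21 and 17.36, rank 112. Ldha read 16.88, 16.88 and 16.99, whereas Ldhb, named after its values were seen, was not detected. Gapdh averaged 17.76 on a probe with a shared stretch, and all 8 of its probes were detected, the dimmest at 13.79. Hk1 averaged 16.78, also on such a probe, Eno1 16.63 and Pgk1 16.50. The glucose transporters Slc2a2, Slc2a4 and Slc2a5 and the sperm form Gapdhs were not detected. Of 20 actins and tubulins 14 were detected and 10 were bright. Actb read 18.24, 18.29 and 18.26, rank 4, and Actg1 averaged 17.75 ± 0.04, while the muscle actins Acta1, Actc1 and Actg2 were not detected. Tuba1b averaged 16.54, Tuba1c 15.91, Tubb5 15.29 and Tubb6 14.77. Tuba3a and Tuba8 were not detected, and Tubb1 was on 1 array. Integrins were detected in 14 of 26 cases (53.8%). The leukocyte chains Itgb2, Itga4 and Itgal averaged 12.66, 11.92 and 11.90, Itga6 13.17 and Itga5 10.58. Itga1, Itga2, Itga2b, Itga3, Itga8 and Itga9 were not detected.

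Growth control genes were detected in 25 of 28 cases, 7 of them bright. Mdm2, which degrades p53, averaged 14.36 ± 0.07, Ccnd3 13.77 ± 0.06, Cdk4 13.70 ± 0.12 and the cell cycle inhibitor Cdkn1a 13.57 ± 0.06. The proliferation markers Pcna and Mki67 averaged 13.05 and 12.70. Cdkn1c, Cdkn2a and Cdkn2b, which encode inhibitors of cyclin-dependent kinases, were not detected. Of 9 Y-linked genes and X-inactivation RNAs, the Y-linked Eif2s3y read 10.81, 10.69 and 10.86 and Ddx3y read 9.57, 9.27 and 9.51, and Xist, transcribed from the inactive X chromosome, was not detected. Kdm5d, Usp9y and Zfy1 were not detected, and Uty and Sry reached the flag on 1 array each.

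Of the markers of 16 other cell types 37 of 163 were detected (22.7%) and 6 were bright (3.68%), with a median signal of 2.91. The other 32 lists, which include nuclear receptors, actins and tubulins, growth control and Y-linked genes beside those of macrophage function, had 446 of 655 genes detected (68.1%) and 172 bright (26.3%), with a median of 9.06. None of the 9 erythroid and none of the 9 muscle markers was detected. Of the T cell list 3 of 15 were detected: the kinase Lck at 11.64, 11.62 and 11.68, Cd4 at 10.79, 10.82 and 10.68 on 1 of 2 probes, and the receptor chain Cd3e at 10.24, 10.16 and 10.08. The other CD3 chains, Cd3d and Cd3g, were not detected, nor were Cd8a and Cd8b1. Of the B cell list 4 of 15 were detected, the adaptor Blnk (13.55 ± 0.08), Cd22 (9.84 ± 0.08, its only probe holding a shared stretch), Cd79a (6.78 ± 0.20) and Cr2 (5.50 ± 0.08), while the defining Ms4a1, Cd79b and Pax5 were not. Prf1, which encodes perforin, was the only detected marker of NK cells at 8.39 ± 0.13.

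Among 13 neutrophil markers 4 were detected: Csf3r (15.10 ± 0.06, detected on a shared-stretch probe only), S100a8 (11.56 ± 0.07), neutrophil elastase Elane (9.90 ± 0.16) and Camp (5.60 ± 0.26). Ly6g, S100a9, Ltf and Ngp were not detected. Mast cell markers were 2 of 8, Hdc, the histamine-forming decarboxylase, at 13.90, 13.98 and 14.03 and the tryptase Tpsb2 at 6.45 ± 0.21, and the defining Kit was not detected. Dendritic cell markers were 4 of 11. Siglech averaged 16.04 ± 0.08, rank 547, on a shared-stretch probe, and the other 2 of its 3 probes were not detected, the dimmest at 2.71. Itgax averaged 10.45 ± 0.08, Cd207 7.78 ± 0.18 and Zbtb46 6.65 ± 0.15. Pf4 read 7.84, 9.19 and 8.03, with array 2 above the others, and was 1 of the 2 detected megakaryocyte markers of 7. Endothelial markers were 4 of 10. The vascular growth factor receptors Kdr and Flt1 read 12.95, 12.95 and 12.98 and 12.88, 12.68 and 12.86, while Pecam1 averaged 5.85 ± 0.08 and Vwf 5.25 ± 0.22. Tek and Tie1 were not detected, and Cdh5 reached the flag on 1 array. Adipocyte markers were 4 of 9: Fabp4, Retn (8.01 ± 0.17), Lipe (6.70 ± 0.14) and Aqp7 (5.29 ± 0.13), without Adipoq, Lep or Plin1. The fibroblast markers Fap and Col1a2 averaged 7.57 and 5.38, and the epithelial Krt14 5.93. Afp and Tat of hepatocytes averaged 9.22 and 6.24. Snap25 and Tubb3 of neurons averaged 10.59 and 4.91, and Nanog and Prm1 of germ and pluripotent cells 8.01 and 7.69. Snap25 and Nanog were read on shared-stretch probes only. Some calls rested on part of a gene's probes. Of the detected markers with more than 1 probe, all probes were detected for 0 of 2 B cell, 0 of 1 neutrophil, 0 of 1 mast cell and 1 of 3 endothelial markers. Whether any of these signals came from other cells was not tested.

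**Figure D3:**
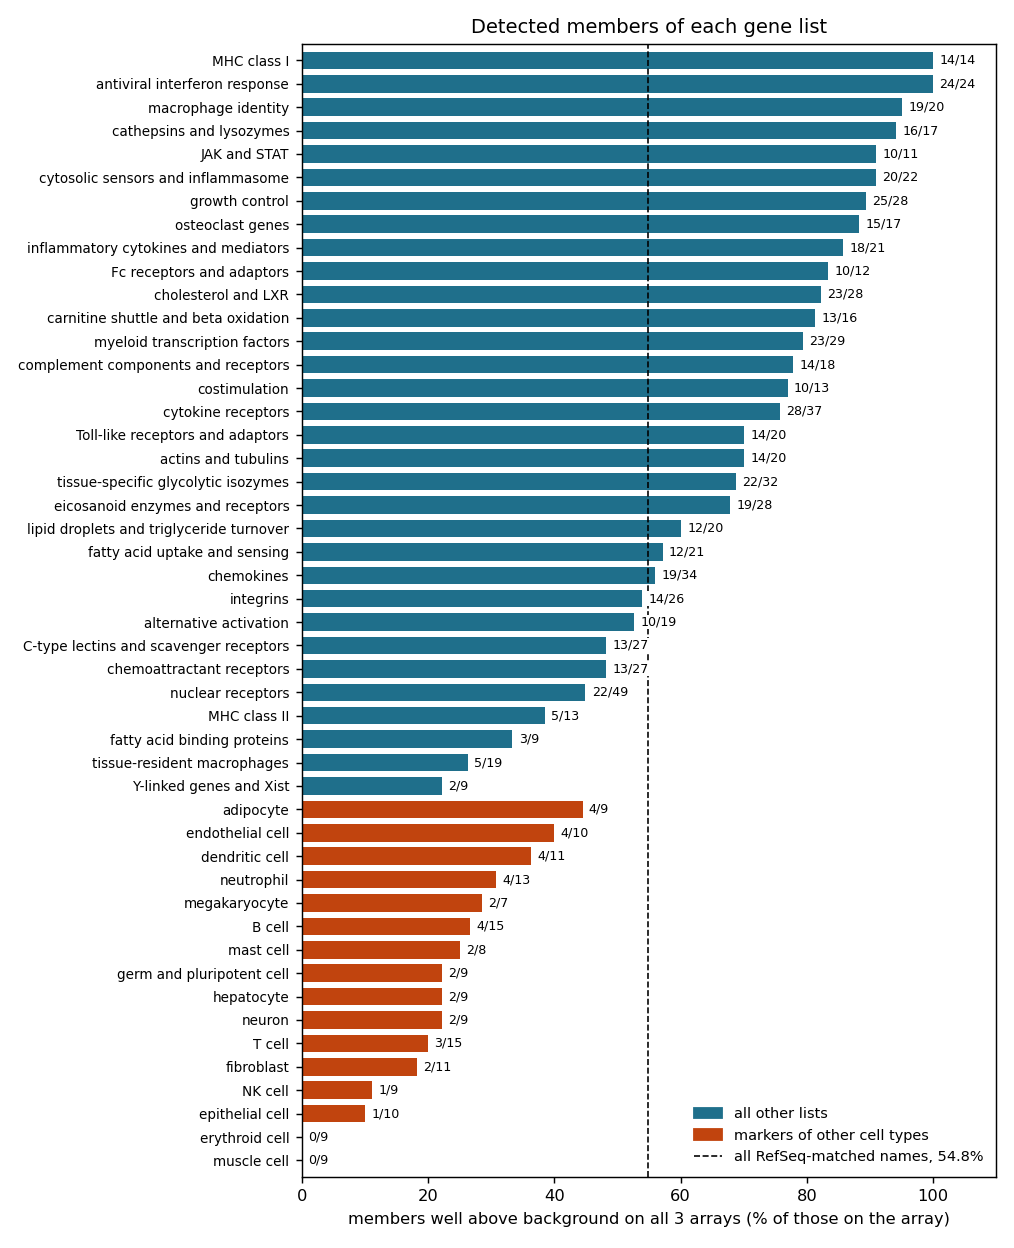
Members detected on all 3 untreated arrays as a percentage of those on the array (horizontal axis) for 48 gene lists (vertical axis), in red for markers of other cell types and in blue for all other lists, with the counts beside each bar. The dashed line marks the 54.8% of all RefSeq-matched names: MHC class I and the antiviral interferon response reach 100%, the 16 lists of other cell types lie between 0% and 44.4%.

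Families defined by gene name were counted in the same way. Cytosolic ribosomal proteins were detected in 80 of 84 cases with 79 bright, a median of 16.80, and mitochondrial ribosomal proteins in 76 of 76. Rpl10l, Rpl39l, Rpl3l and Rps4y2 were the ribosomal members not detected, named after their values were seen, as are the respiratory ones below. Proteasome subunits were detected in 47 of 48 cases, translation initiation factors in 56 of 58, aminoacyl tRNA synthetases in 33 of 34 and chaperonin subunits in 7 of 8. Respiratory chain and ATP synthase genes were detected in 86 of 90, and the 4 missing were Cox7b2, Cox8b, Cox8c and Ndufa4l2. V-ATPase subunits, which acidify lysosomes, were detected in 17 of 22, clustered histones in 40 of 47, zinc finger genes named Zfp in 249 of 360 (69.2%) and solute carriers in 191 of 356 (53.7%). Clustered histone genes are near copies whose probes may not be told apart.

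Families of sensory and developmental genes had few detected members. Olfactory receptors were detected in 47 of 1076 cases (4.37%), vomeronasal receptors in 13 of 251 (5.18%) and bitter taste receptors in 2 of 35 (5.71%). Olfr544 was the only bright olfactory receptor and read 12.46, 12.49 and 12.49, followed by Olfr1466 at 11.66, 11.80 and 11.79 and Olfr1229 at a mean of 10.71 ± 0.01. Each held its level on all 3 arrays. The next detected were Olfr373, Olfr1368, Olfr1417, Olfr1252, Olfr522, Olfr166 and Olfr319, from 9.77 down to 6.92. Vmn1r219 averaged 10.13 ± 0.26 and Vmn1r217 8.35 ± 0.02. Vmn1r70, Vmn1r87, Vmn2r3, Vmn1r25, Vmn1r204, Vmn1r192, Vmn1r195 and Vmn1r173 lay between 8.08 and 5.47. The bitter receptors Tas2r109 and Tas2r113 averaged 11.12 ± 0.18 and 10.97 ± 0.17. None of 42 beta-defensins was detected. Hox genes were detected in 8 of 39 cases, keratins in 11 of 51, protocadherins in 7 of 47 and cytochromes P450 in 21 of 91. Long intergenic RNA names were detected in 2024 of 4622 cases (43.8%), 129 of them bright, with a median of 4.65.

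The 20 brightest names were not all genes of known high use. Rn18s, the 18S ribosomal RNA, read 18.34, 18.43 and 18.42. Actb, the ferritin heavy chain Fth1 (18.08, 18.16 and 18.10) and the mitochondrial COX1 (17.96, 18.11 and 18.11) were among them, with the ribosomal Rps27a, Rpl35, Fau and Rps20 between 17.93 and 17.94. Exosc2, 2610028H24Rik, NAP111752-1, Gm885 and Zfp628 stood between 18.01 and 18.16. The dimmest probe, also detected, averaged 8.79 for 2610028H24Rik, 8.62 for Zfp628 and 13.47 for Gm885. A further 6 of the 20 were Glrx2, Kctd14, Elk1, Slc10a1, Lilrb3 and Ttc38. They stood on probes that hold a 15-base stretch found in the probes of at least 5 other gene names. Kctd14 read 18.25, 18.27 and 18.31 on that probe, and the dimmest of its 3 probes averaged 2.57. Slc10a1, the bile acid transporter of liver, read 17.94, 17.95 and 18.05 on such a probe and averaged 2.48 on its other one, which was not detected. Ttc38 read 17.87, 17.88 and 17.94, and the dimmest of its 4 probes averaged 4.16.

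Stretches of this kind recur. The 5 most common that use all 4 bases and the 2 most common of fewer bases, by number of gene names and leaving out near copies, are shown because probes that hold them differed widely in signal. They are written 5′ to 3′ on 1 strand and were matched on both, and no base is marked by capitals.
B1-type stretch: gctacacagagaaac
B2-type stretch: actgtagctgtcttc
CA repeat: acacacacacacaca
GAA repeat: aagaagaagaagaag
Stretch in 24 names: aaaggctttaccaca
Stretch in 14 names: agaaaccctatgaat
Stretch in 13 names: catactggagagaaa
The names B1 and B2 are background: these letters also occur in those interspersed repeat families of the mouse. The B1-type stretch stood in 14 probes, 13 of them detected, with a median signal of 13.44. The B2-type stretch stood in 13 probes, 12 detected, with a median of 17.36. The CA repeat stood in 119 probes, 116 detected (97.5%), with a median of 15.15, and the GAA repeat in 52 probes, 49 detected (94.2%), with a median of 11.23. The other 3 stretches had dimmer probes: the one in 24 names had 14 of 24 probes detected (58.3%) and a median of 6.06, the one in 14 names 9 of 14 (64.3%) and 8.27, and the one in 13 names 13 of 14 (92.9%) and 7.06. Over all 1379 probes with a shared stretch, 67.5% were detected with a median signal of 8.63, against 39.6% and 3.72 for the 54302 without. Among the brightest 100 names 32 stood on such a probe, and 3.26% of all names did. For 661 of the 16646 detected names (3.97%), Siglech, Nanog, Pigr and Snap25 among them, no probe without such a stretch was detected. Whether these probes bound other transcripts was not tested.

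**Figure D4:**
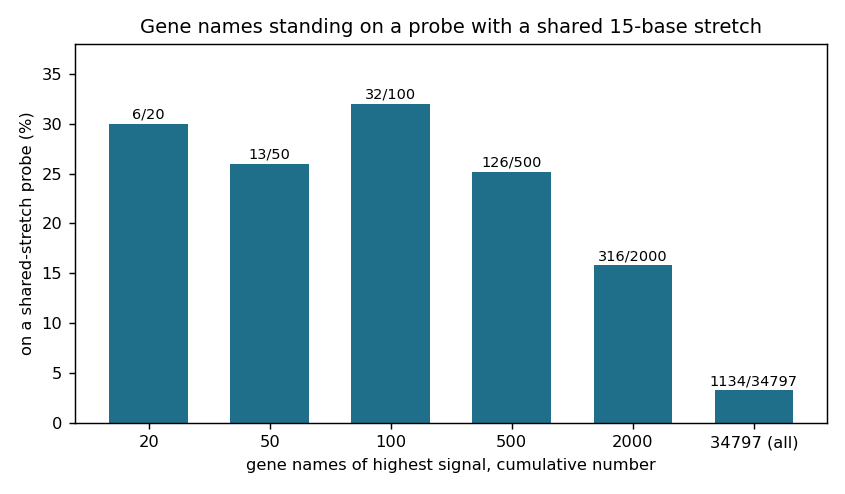
Percentage of gene names whose brightest probe holds a shared 15-base stretch (vertical axis) among the brightest 20, 50, 100, 500 and 2000 names and among all 34797 (horizontal axis, cumulative). The share was 30%, 26%, 32%, 25.2% and 15.8% in these sets and 3.26% over all names, with the counts above the bars.

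Probes of the same gene often differed. Of 11173 names with more than 1 probe, 3241 had all probes detected, 4442 had none and 3490 had some. Where all were detected, the brightest and dimmest differed by a median of 1.92. The call of a gene thus rests on its brightest probe, as for Cd4 and Rxrg above.

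The 3 arrays were close to each other. Over the 22418 detected probes Pearson's r between arrays was 0.997 for every pair, a description across probes that share their sequences, and the median absolute difference was 0.087 to 0.098. After each array was scaled to its 75th percentile, the median SD of a detected name was 0.075 and the 95th percentile 0.289. It fell from 0.165 in the dimmest quartile of the detected names to 0.044 in the brightest. On 217 detected probes printed 10 times on each array, the median SD was 0.070 among spots of an array and 0.053 between the array means. The first is of single spots and the second of means over 10 spots, so they are not directly comparable.

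**Figure D5:**
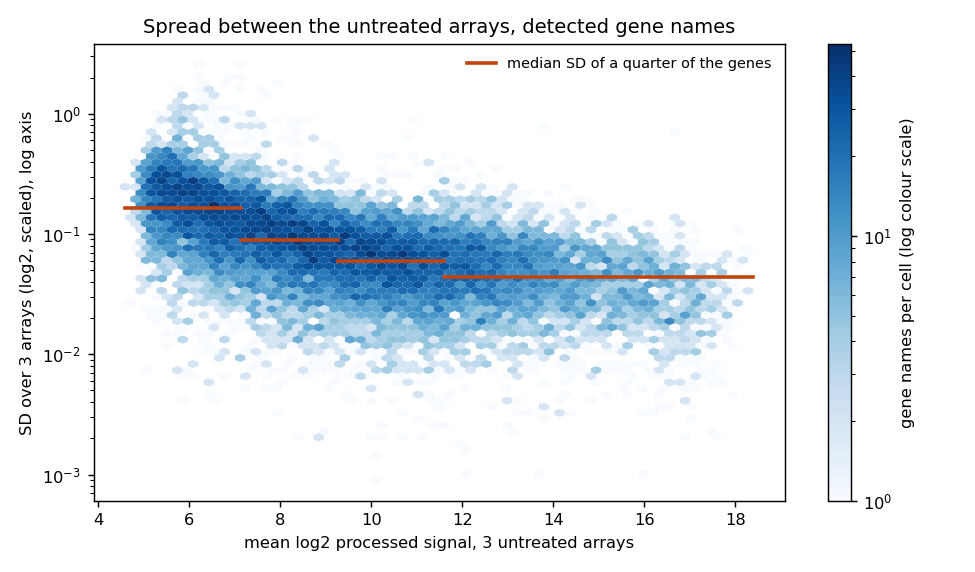
SD over the 3 untreated arrays after scaling (vertical log axis, log2 units) against mean log2 processed signal (horizontal axis) of the 16646 detected names, darker cells holding more names. The red lines give the median SD of each quartile of the names, 0.165, 0.088, 0.060 and 0.044 from the dimmest to the brightest.

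Among detected names standing on a RefSeq-matched probe, the 10 of largest spread each had 1 array apart. Detected names on other probes were not ranked by spread. Mef2c, a factor of muscle and myeloid cells, read 9.12, 4.76 and 4.61, high on array 1 only. Sept5 read 5.68, 5.51 and 10.01 and Grid2ip 6.01, 5.57 and 9.11, both high on array 3 only. Zfp266 read 9.50, 5.94 and 6.05, with array 1 high, and Cstad 6.09, 8.84 and 5.69, with array 2 high. Next came 4930520P13Rik (5.40, 5.12 and 8.39), Zfp160 (6.45, 7.30 and 9.83), Aldh1a2 (9.00, 6.05 and 6.15), Loh12cr1 (8.20, 5.43 and 5.83) and Grik5 (7.60, 5.25 and 4.86). Their SD after scaling ran from 1.49 to 2.55.

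At the detection boundary the dimmest detected names were a long intergenic RNA of chromosome 13 (mean 4.59), Gm7894 (4.67), Anxa8 (4.70), Gm9340 (4.70) and Pde4d (4.76). The brightest names outside it had 1 array without the flag. Cdh13 read 2.80, 9.13 and 8.06, TC1719863 3.41, 8.67 and 7.84 and Olfr767 7.90, 8.49 and 2.20. Olfr29-ps1 read 3.67, 7.03 and 8.77 and Vmn1r38 9.05, 4.00 and 5.98. The boundary therefore depends on the flag of each array. The lowest flagged signal was 4.75 on array 1, 4.50 on array 2 and 4.35 on array 3. Spots without the flag reached 5.24, 4.98 and 4.84 on these arrays, so the flag is not a fixed cut in signal.

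Promoter sequence, which the flag does not use, was set beside detection, with no test. Of 16297 RefSeq-matched names with a promoter in the table, the ratio of observed to expected CpG over the window had a median of 0.754 in the 9086 detected and 0.313 in the 7211 others. It was above 0.6 in 69.8% and 26.5%. The TATA box, searched as TATAAA on the gene's strand 45 to 11 bases before the start, was present in 2.04% of detected names, 4.78% of the others and 3.25% of all these names. Counted by promoter, where a name can have several, it was in 2.22% of all 32851 in the table. The 19 genes of the antiviral interferon response with a promoter had a median CpG ratio of 0.324. By chromosome, over the autosomes and X with Y left out, the share of RefSeq-matched names detected was lowest on X (43.6% of 810). Chromosome 6 came next (48.6% of 1112), and the share was highest on 11 (60.9% of 1604) and 8 (60.9% of 989). Probes differ in base composition: 29.8% were detected below 35% G and C and 51.3% at 55% or more, and its part in these shares was not tested.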

How the data were processed

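The arrays were read with Agilent Feature Extraction 10.7.3.1, per the file headers, which writes for every spot a background-subtracted processed intensity (linear scale). No normalization between arrays had been applied to the deposited intensity values. The authors' deposited value table matched the processed intensity within 0.005 on a linear scale, uncentred, with column medians of 13.46, 12.97 and 13.27. Further steps by the authors are not given in the sources here. Probe positions are of mm9, per the file headers. No genome of that build was used, so the exon, intron or UTR of a probe was not analysed.

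The labels gave the groups, and no test between groups was run, since 1 group was described. Of 59305 non-control spots per array 42.8%, 44.4% and 45.4% were well above background and none was saturated. Spots marked as outliers (157 to 185 per array) were left out, and spots of a probe were averaged, which left 55681 probes with 34797 names. The brightest probe stood for its name. Levels are log2 of the processed intensity, unscaled, and the SD between arrays in the part on spread is of values minus each array's 75th percentile. The number of arrays, 3, limits the precision. Accessions of 27235 probes (48.9%) matched the RefSeq table, and gene names, taken from the array design, can be old. Member lists (48) and families (21) were chosen with earlier results of these data known. H2-L was not matched on the array.

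Named were the 6 markers, the 20 brightest names, up to 6 detected and 6 undetected members per list, and every detected marker of other cell types. Also named were up to 10 detected members of families with under 10% detected, 5 names on each side of the detection boundary, and the Fabp genes. The 10 names of largest SD were taken from detected names standing on RefSeq-matched probes. Genes outside this rule are marked in the text. Some genes that the rule names are not reported here. Alternatives covered the array rule, the flag, the probe rule, normexp (offset 50) with quantile normalization in limma 3.58.1 and R 4.3.3, scaling, outlier spots and each array left out. The code of the detection rule was run on simulated data of 3 arrays whose flags were set beforehand. There 100% of the calls of 2500 names came out as simulated. That checks the code only, not whether a flag is right on real spots. Computing used Python 3.11.15, pandas 2.3.3, scipy 1.17.1 and matplotlib 3.10.9.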

Additional observations from a re-analysis of the deposited data

How the results depend on the processing

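Of the 44 alternative values of the summary results, 40 kept within their limits, which for the share of names detected held both 37.8% and 60.4%. Some of the 40 could not move. Scaling subtracts 1 value per array and keeps the order of the mean signals. The deposited values nearly equal the processed intensity. Ranking among detected names only leaves out names dimmer than the markers. The median marker rank was 2130.5 under each of these settings, which says nothing of its stability. With the software's weaker flag for positive and significant signal, 67 markers of other cell types were detected in place of 37, and 60.4% of all names in place of 47.8%. When every probe of a gene had to pass, 27 of these markers were detected. The median rank of the 6 markers was 2130.5. It was 1949.5 with normexp and quantile normalization, 3529 with the mean of a gene's probes in place of the brightest, and 2047 without probes that hold a shared stretch, an alternative chosen after seeing the data, under which fewer names are ranked. Why the first of these moved was not tested. The share of names detected ran from 37.8%, when every probe had to pass, to 60.4%. Leaving out 1 array in turn gave 48.1% to 49.3%, and a median rank of 2114 to 2144. Without probes of shared stretches 468 of the 476 detected list members were still detected. Among counts of single lists and ranks of single markers, 39 of 486 alternatives moved, 13 of them under the weaker flag. The 486 include marker ranks under the settings that could not move them. With the weaker flag 9 of 13 MHC class II and 7 of 9 Fabp genes were detected. No paired analysis was possible because only 1 group was described. Probes near background limit the low end: a name that is not detected may still be expressed below the flag, whose lowest signal was 4.35 to 4.75.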
